A study of Mus musculus with 13 samples.

Results

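The collagens are the protein-coding mouse genes of GENCODE M21 named Col, a number, a and a number, and 44 of 21951 protein-coding genes carried such a name. Chromatin access at their promoters and along their gene bodies was read from 13 Omni-ATAC-seq peak lists of cultured oligodendrocyte precursor cells (OPCs). Omni-ATAC-seq finds open chromatin through the insertion of a transposase. Cells came from P5 to P7 litters of a cross that the labels spell AMGFAP-Cre;K27M and the study names hGFAP-Cre;K27M. In this cross H3.3 K27M is knocked in at the endogenous H3-3a locus. It is switched on by human GFAP promoter-driven Cre in neural stem and progenitor cells. The 4 groups were control brainstem (3 libraries), K27M brainstem (3), control dorsal telencephalon (3) and K27M dorsal telencephalon (4). Tissue was pooled by region and genotype, so a library stands for a pool of animals and not for 1 animal, and the library is named here by its culture number (41, 51, 59 or 61). Endothelial cells and microglia had been depleted on a BSL1-coated dish and OPCs captured on anti-PDGFRα, and the cells were kept in proliferation medium with no differentiation. The K27M label was not checked at the mutated base, since peak lists hold no sequence of the cells.

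Collagens are triple-helical proteins of the extracellular matrix. Fibrillar collagens such as types I, III and V build tensile fibrils, type IV builds the network of basement membranes, and fibril-associated collagens such as type IX coat fibrils. In brain most fibrillar and basement membrane collagen is made by fibroblasts, pericytes and endothelial cells of the vessels and meninges, while cartilage-type collagens (types II, IX and XI) are known targets of SOX9 and its relatives.

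A promoter peak was found in every library for 5 of the 44 collagens, in 12 libraries for 11, in 9 to 11 for 7, in 1 to 7 for 12 and in none for 9. A promoter peak is a deposited peak touching the window from 2 kb upstream to 1 kb downstream of any annotated transcription start. The 5 were the fibrillar Col5a1, Col11a1 and Col11a2 and the fibril-associated Col16a1 and Col19a1. The 9 without a peak were Col3a1 (type III fibrils), 5 of the 6 type VI genes (Col6a1, Col6a3, Col6a4, Col6a5 and Col6a6), Col7a1 (anchoring fibrils), and Col8a2 and Col10a1 (hexagonal networks). Among all protein-coding genes 42.0% had one in every library and 30.6% in none, against 11.4% and 20.5% of collagens. Found in some libraries but not in others were 68.2% of collagens and 27.4% of protein-coding genes. Without the short list of control telencephalon 59, 31.8% of collagens were found in every library and 20.5% in none, against 49.5% and 30.7% of protein-coding genes. A peak in such a culture cannot tell a few cells with an open promoter from a weakly open promoter in all cells.

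Collagen promoters differed in the bases around their starts. The sequences below show, 5′ to 3′ and with CpG dinucleotides in capitals, a promoter rich in CpG and open in 12 libraries (Col4a2, chr8:11312555-11312854, + strand, 33 CpG in 300 bases), one open in all 13 (Col11a1, chr3:114030290-114030589, + strand, 9 CpG) and one with no peak (Col3a1, chr1:45311288-45311587, + strand, 0 CpG). They are RefSeq promoters of GRCm38.p6, which is the mm10 assembly used for the peaks, from 250 bases before to 50 after the gene start.

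Col4a2: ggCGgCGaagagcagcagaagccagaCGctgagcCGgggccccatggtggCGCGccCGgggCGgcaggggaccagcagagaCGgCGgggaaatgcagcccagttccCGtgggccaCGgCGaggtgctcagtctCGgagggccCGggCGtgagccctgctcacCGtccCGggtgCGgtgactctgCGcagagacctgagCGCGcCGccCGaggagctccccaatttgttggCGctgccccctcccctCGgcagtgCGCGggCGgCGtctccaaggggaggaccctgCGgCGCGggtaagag

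Col11a1: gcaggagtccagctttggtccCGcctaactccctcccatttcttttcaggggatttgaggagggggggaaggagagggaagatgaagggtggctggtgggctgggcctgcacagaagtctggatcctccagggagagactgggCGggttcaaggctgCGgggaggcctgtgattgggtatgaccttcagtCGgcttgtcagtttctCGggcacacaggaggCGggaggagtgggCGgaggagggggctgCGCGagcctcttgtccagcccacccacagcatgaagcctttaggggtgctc

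Col3a1: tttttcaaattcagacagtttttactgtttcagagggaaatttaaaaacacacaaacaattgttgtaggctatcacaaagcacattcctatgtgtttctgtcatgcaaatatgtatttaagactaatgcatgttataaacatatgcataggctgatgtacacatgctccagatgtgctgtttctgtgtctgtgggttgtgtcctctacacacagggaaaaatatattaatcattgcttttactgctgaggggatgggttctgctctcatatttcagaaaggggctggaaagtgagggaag

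Counted from the genome in the same window at the 5′ end of each gene, collagens with a promoter peak in 12 or 13 libraries held a median of 12 CpG (16 genes, range 0 to 37), those in 1 to 11 libraries 11 (19 genes) and those in none 7 (9 genes). The corresponding medians of all protein-coding genes were 20, 9 and 2. The window holds the bases at the 5′ end of the gene and not always those of the peak. For example, the peaks of Col1a1, Col16a1 and Col25a1 lay over internal starts and those of Col9a1, Col9a2 and Col20a1 over no start. Col8a2 held 32 CpG and had no promoter peak.

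**Figure D1:**
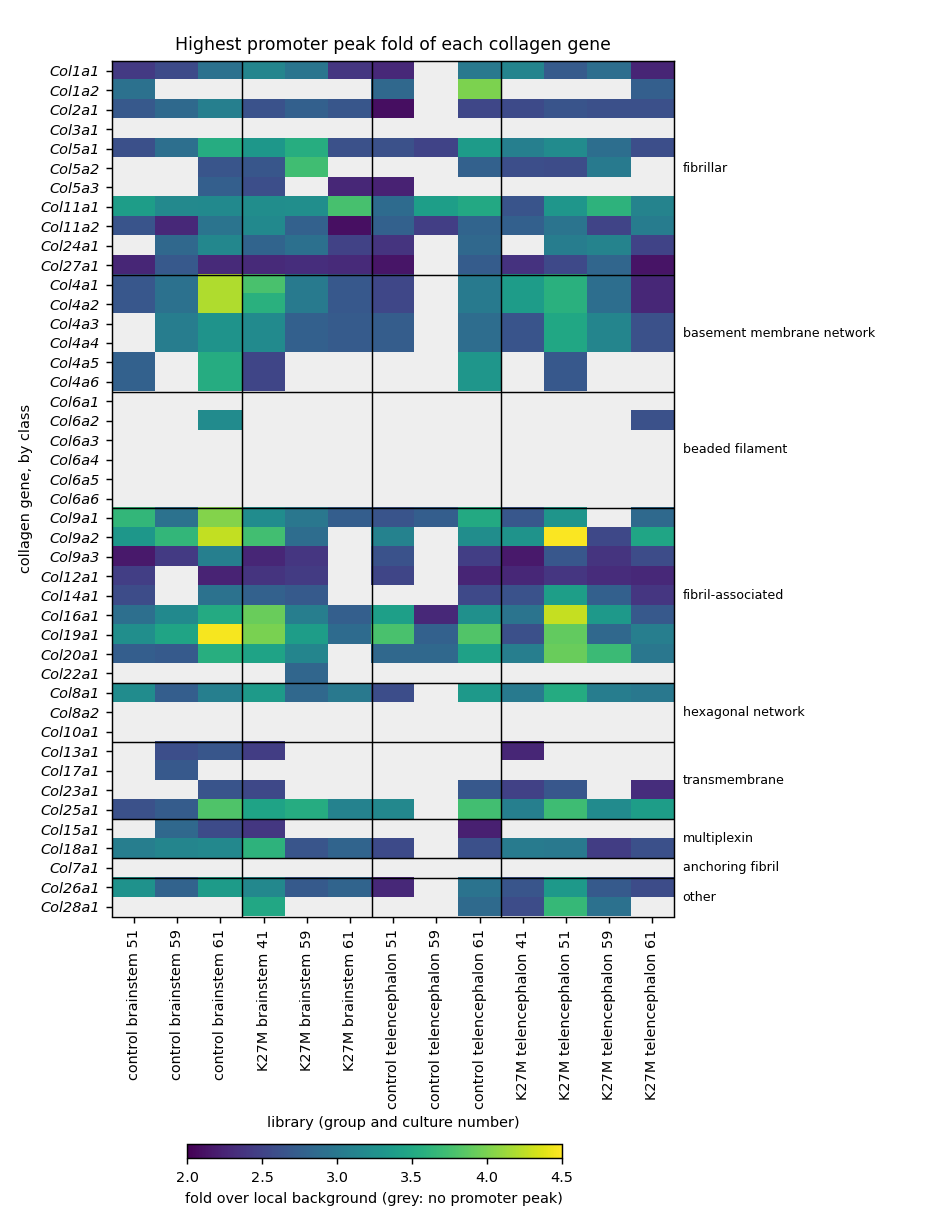
Highest promoter peak fold over local background (colour) of the 44 collagens (rows, by class) in the 13 libraries (columns), with no promoter peak in grey. Type VI genes are almost without colour, and the control telencephalon library of culture 59 has a value for 7 of 44 genes.

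Deposited values are fold enrichments over the local background of the same library, averaged over the peak. They are given below with their percentile in the library's own list, since the lists were not normalised to each other. Over libraries with a peak, the promoter folds of the collagens had a median of 2.91 and a median percentile of 46.0, against 3.2 and 60.8 for all protein-coding genes with a promoter peak.

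Col11a1, the α1 chain of type XI collagen that sets fibril diameter in cartilage, had the highest mean percentile of the 5 collagens found in all libraries, at 67.4, with a fold of 3.27 ± 0.295 (SD, n = 13). Its folds were 3.39, 3.18 and 3.19 in control brainstem (cultures 51, 59, 61), 3.23, 3.24 and 3.77 in K27M brainstem (41, 59, 61), 2.87, 3.4 and 3.51 in control telencephalon (51, 59, 61) and 2.65, 3.31, 3.62 and 3.12 in K27M telencephalon (41, 51, 59, 61). The groups overlapped, and the highest and lowest values were both in K27M libraries. Its peak covered the gene start in all 13 libraries and was wide, with a median of 2520 bp, and in K27M brainstem 61 and K27M telencephalon 59 it was called as 2 pieces.

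Col19a1, a fibril-associated collagen made by some neurons, had a fold of 3.4 ± 0.564 (n = 13) and a mean percentile of 66.6. In the same order its folds were 3.24, 3.46 and 4.47 in control brainstem, 4.0, 3.39 and 2.87 in K27M brainstem, 3.78, 2.78 and 3.82 in control telencephalon and 2.61, 3.9, 2.84 and 3.07 in K27M telencephalon. Control brainstem 61 was highest and K27M telencephalon 41 lowest, and the 4 groups overlapped.

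Col16a1, a fibril-associated collagen, had a fold of 3.2 ± 0.526 (n = 13) and a mean percentile of 58.7. Its folds were 2.91, 3.19 and 3.53 in control brainstem, 3.93, 3.07 and 2.76 in K27M brainstem, 3.41, 2.29 and 3.25 in control telencephalon and 2.96, 4.28, 3.34 and 2.7 in K27M telencephalon. The value of 4.28 in K27M telencephalon 51 was the highest and that of 2.29 in control telencephalon 59 the lowest. The most shared Col16a1 peak lay over an internal start in all 13 libraries, at position 130055990 of a gene that begins at 130047840.

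Col5a1, the α1 chain of type V collagen that starts fibrils in many tissues, followed with a fold of 2.99 ± 0.384 and a mean percentile of 48.3. Col11a2, the α2 chain of type XI, had 2.72 ± 0.311 and 33.5. Col5a1 ranged from 2.5 in control telencephalon 59 to 3.56 in K27M brainstem 59, and Col11a2 from 2.1 in K27M brainstem 61 to 3.19 in K27M brainstem 41. The mean folds of neighbours in this order (Col19a1, Col11a1, Col16a1, Col5a1, Col11a2) lay within 1 SD of each other.

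**Figure D2:**
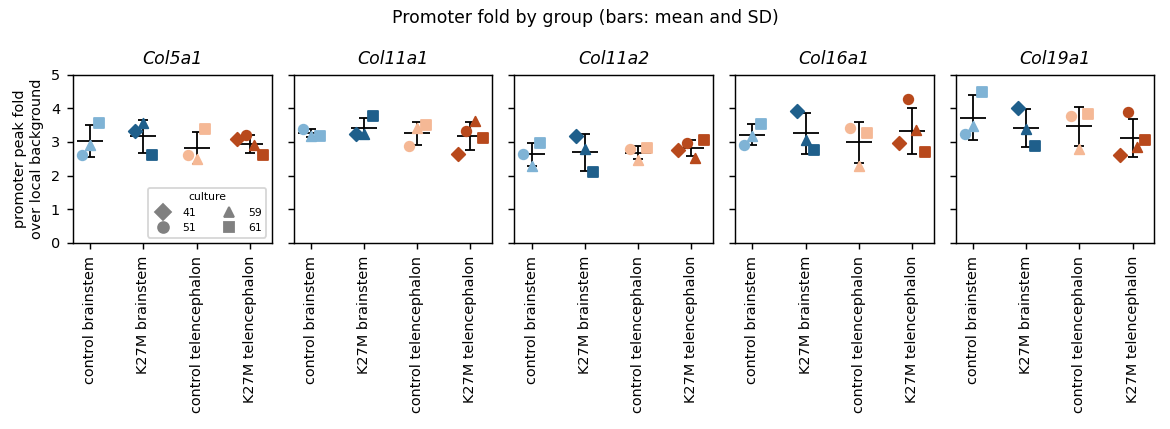
Promoter peak fold over local background (y) of the 5 collagens found in all 13 libraries, by group (x), with 1 point per library, its culture by shape, and the mean and SD as bars. The groups overlap in each panel, and all points lie between 2.1 and 4.47.

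The cartilage-type fibril-associated collagens Col9a1, Col9a2 and Col9a3, whose chains form type IX collagen, and Col20a1, a fibril-associated collagen known from embryonic cartilage and tendon, had their most widely shared peak inside the gene and not over a start. The peaks lay in introns, centred 1074 bp (Col9a1), 1630 bp (Col9a2), 2048 bp (Col9a3) and 1257 bp (Col20a1) downstream of the nearest annotated start, and covered an annotated start in 0 libraries. For Col9a1 that start is an internal one, at position 24229517 of a gene that begins at 24177610. The peaks were found in 12 libraries for Col9a1 and in 13 for the other three, also where they lay outside the promoter window. Col9a3 had other peaks within 500 bp of a start in 10 libraries, so its promoter fold is not that of the intronic peak (2.62 ± 0.277, n = 13). The middle 200 bases of these peaks (GRCm38.p6, + strand, CpG in capitals) are shown because they hold few CpG, 3, 3, 3 and 4, against a median of 10 (quartiles 3 and 20) in the middle 200 bases of 13056 peaks shared by all 13 libraries. Their positions are chr1:24230492-24230691, chr4:121041279-121041478, chr2:180600755-180600954 and chr2:180987693-180987892.

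Col9a1: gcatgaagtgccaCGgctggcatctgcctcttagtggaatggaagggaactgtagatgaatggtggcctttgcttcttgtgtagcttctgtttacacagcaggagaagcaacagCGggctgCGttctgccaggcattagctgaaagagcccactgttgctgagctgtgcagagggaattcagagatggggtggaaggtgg

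Col9a2: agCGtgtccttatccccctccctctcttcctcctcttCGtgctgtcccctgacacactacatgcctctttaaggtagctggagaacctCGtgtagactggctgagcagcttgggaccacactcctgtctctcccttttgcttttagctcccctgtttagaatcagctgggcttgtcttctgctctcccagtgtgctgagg

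Col9a3: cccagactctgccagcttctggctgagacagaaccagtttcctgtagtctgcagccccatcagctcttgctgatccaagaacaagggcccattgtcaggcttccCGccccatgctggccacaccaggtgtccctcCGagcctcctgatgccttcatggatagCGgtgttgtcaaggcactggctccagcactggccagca

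Col20a1: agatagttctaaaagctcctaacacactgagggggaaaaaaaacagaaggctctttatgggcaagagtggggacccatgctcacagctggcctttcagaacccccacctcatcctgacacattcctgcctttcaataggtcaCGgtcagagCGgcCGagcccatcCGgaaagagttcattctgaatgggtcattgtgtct

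**Figure D3:**
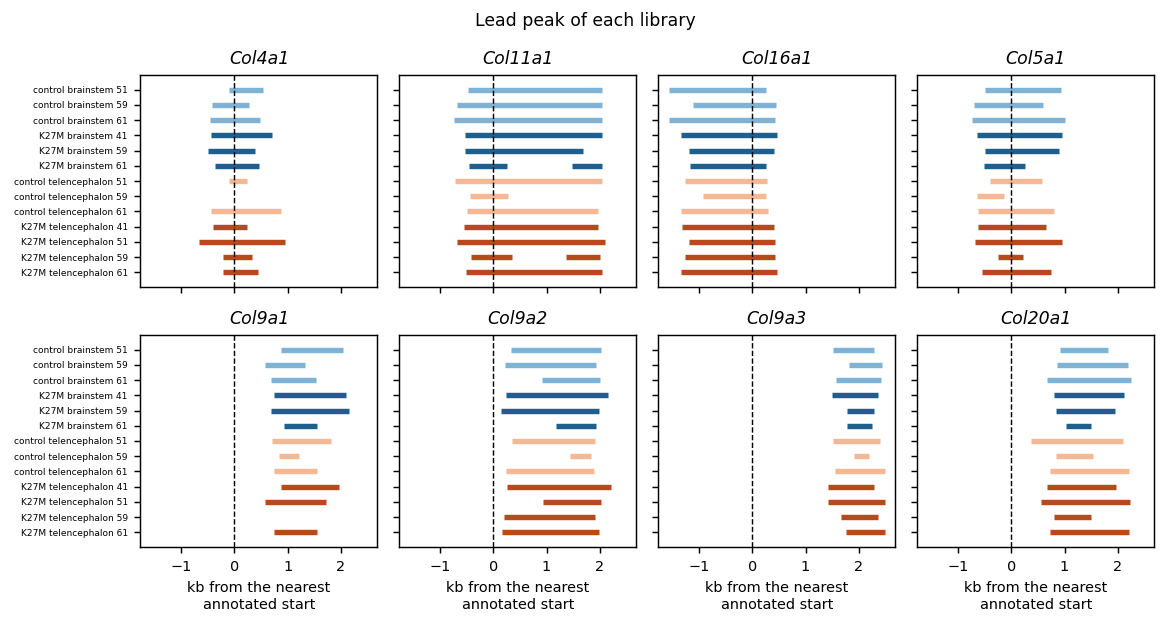
Extent of the most widely shared promoter peak in each library (1 row per library, coloured by group) in kb from the nearest annotated start (dashed line at 0, downstream to the right) for 8 collagens. The peaks of Col4a1, Col11a1 and Col16a1 cross the line in each library that has one, and those of Col9a1, Col9a2, Col9a3 and Col20a1 lie to its right.

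Over the 20 collagens with a promoter peak in 11 or more libraries, the highest peak covered no annotated start in any library for 3 (15.0%: Col9a1, Col9a2 and Col20a1). The share was 2.24% of 11752 protein-coding genes, 9.64% of the 1151 with 5 or fewer CpG and 1.42% of the 10597 with 6 or more. With 3 genes these shares are a description.

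Col9a2 had the highest fold among these, 3.45 ± 0.568 (n = 11). Its folds were 3.32, 3.66 and 4.27 in control brainstem, 3.74 and 2.89 in K27M brainstem 41 and 59, 3.11 and 3.23 in control telencephalon 51 and 61 and 3.28, 4.49, 2.54 and 3.47 in K27M telencephalon. The 2 missing libraries, K27M brainstem 61 and control telencephalon 59, were the shortest lists, and in both the intronic peak was called but lay outside the promoter window.

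Col20a1 had 3.2 ± 0.405 and Col9a1 3.11 ± 0.44 (n = 12 each), and Col9a3 2.48 ± 0.26 (n = 11). Both Col20a1 and Col9a1 kept a peak in control telencephalon 59, at 2.84 and 2.75. Col25a1, a transmembrane collagen of neurons, had 3.3 ± 0.383 (n = 12) with a peak over an internal start in all 12.

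The words ACAAAG and ACAATG, which SOX proteins can bind, were searched on both strands. The search covered the middle 200 bases of the most shared peak of 24 collagens, where it was found in 9 or more libraries. Col4a1 and Col4a2 have the same peak, as do Col4a3 and Col4a4, and these were counted once per gene. The SOX words were in 5 (20.8%: Col1a1, Col2a1, Col9a3, Col20a1 and Col26a1), against 20.1% of the 13056 peaks shared by all libraries. The AP-1 word TGANTCA was in 0 of 24 (4.35% of the shared peaks), and the E-box CAGCTG in 4 (16.7%, against 14.7%). None of these words contains another, and a match is not a binding site.

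The 6 type IV genes lie in head-to-head pairs, and each pair shared 1 promoter peak. Col4a1 and Col4a2, the chains of nearly all basement membranes, have 5′ ends 21 bp apart and shared a peak at chr8:11311881-11313481 that covered both starts in 12 libraries, with a fold of 3.07 ± 0.540. A shared peak cannot be split between the genes. Col4a3 and Col4a4, with 5′ ends 72 bp apart, shared one in 11 libraries (fold 2.96). Col4a5 and Col4a6, with 5′ ends 1309 bp apart on the X chromosome, shared one in 5 libraries (2.97), which covered a start of Col4a5 and none of Col4a6.

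The Col4a1 promoter fold was 2.68, 2.93 and 4.2 in control brainstem, 3.78, 3.03 and 2.69 in K27M brainstem, 2.53 and 3.02 in control telencephalon 51 and 61 and 3.38, 3.59, 2.9 and 2.28 in K27M telencephalon. The 3.78 in K27M brainstem 41 is that of another Col4a1 peak, and the shared peak had 3.59 there. Control brainstem 61 was highest, and the groups overlapped. Col18a1, the basement membrane multiplexin that carries endostatin, had 2.9 ± 0.339 (n = 12). Its relative Col15a1 was found in 4 libraries (2.84, 2.57, 2.41 and 2.22).

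The collagens that brain fibroblasts make in bulk ranged from 0 to 13 libraries. Col1a1, of type I fibrils, had a peak over an internal start in 12 libraries with a fold of 2.73 ± 0.326, but its partner chain Col1a2 was found in 4 libraries (2.93 in control brainstem 51, 2.84 in control telencephalon 51, 4.01 in control telencephalon 61 and 2.76 in K27M telencephalon 61), and its most shared peak covered no start. Col5a2 was found in 7 libraries, Col12a1 in 10 at a low and narrow fold of 2.36 ± 0.092, and Col6a2 in 2 (3.21 in control brainstem 61 and 2.62 in K27M telencephalon 61). Col3a1, Col6a1 and Col6a3 had none.

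Counted as pairs of a gene and a library, the 9 fibroblast collagens had a promoter peak in 48 of 117 pairs (41.0%), the 4 vascular basement membrane collagens (Col4a1, Col4a2, Col15a1 and Col18a1) in 40 of 52 (76.9%) and 6 collagens listed as glial-lineage or neural (Col9a1, Col9a3, Col11a1, Col11a2, Col20a1 and Col25a1) in 73 of 78 (93.6%). With the lists cut to the same number of peaks, the 16879 of lowest p-value, the shares were 14.5%, 32.7% and 82.1%. For all protein-coding genes the mean share over libraries was 58.4% in the deposited lists and 44.6% at equal peak number, so the vascular list lay above it in the first and below it in the second. The last list leaves out other collagens of cartilage or neurons, such as Col2a1 (12 libraries, 8 at equal number) and Col27a1 (12 and 0). Its share also depends on the window. With a promoter of 500 bp on each side of a start, Col20a1 was found in 1 library, Col9a1 in 6 and Col9a3 in 10. Col11a1 and Col11a2 stayed at 13 and Col25a1 at 12. In the vascular list Col4a1, Col4a2 and Col18a1 stayed at 12, and Col15a1 had 3. By these counts the vascular list had the larger share in that window, so the order of these lists depends on the window. These 3 lists were drawn up with earlier results of the same libraries known, so the order of the shares is a description.

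The number of collagen promoters found moved with the length of the list. It was 23, 24 and 31 in control brainstem, 31, 25 and 19 in K27M brainstem, 24, 7 and 30 in control telencephalon and 26, 28, 24 and 26 in K27M telencephalon. The lists held 16879 to 52466 peaks, the shortest being control telencephalon 59, with 7 collagens. Without that library, the number of collagens found in every list was 14 and not 5. The collagen share spanned 15.9% to 70.5% over libraries, wider than the 44.4% to 64.0% of protein-coding genes. It was the lower of the 2 in 9 libraries and the higher in 4. At equal peak number it was the lower in all 13, with 15.9% to 29.5% (median 25%) against 42.3% to 45.5% (median 44.8%). Read depth is not given in the lists, so the part of depth in list length was not tested.

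**Figure D4:**
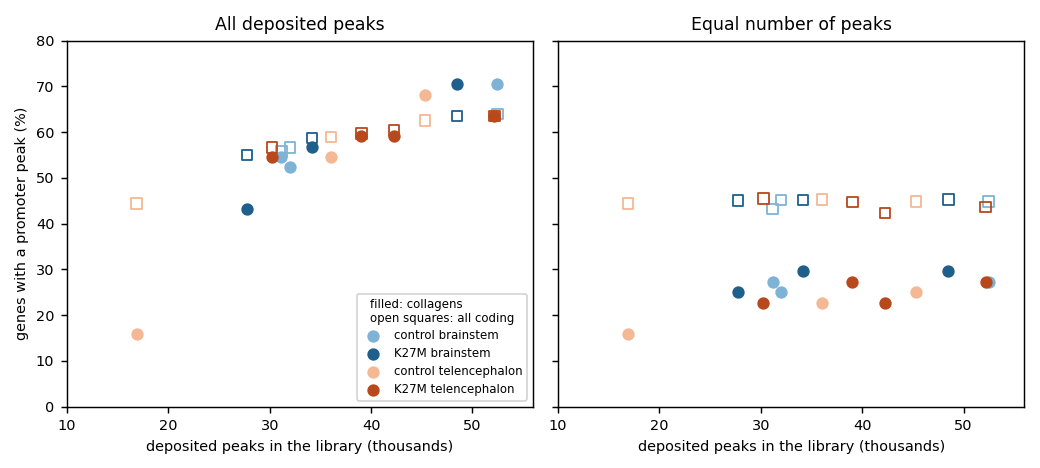
Share of genes with a promoter peak (y, %) against the number of deposited peaks (x), 1 filled point for collagens and 1 open square for all protein-coding genes per library, coloured by group, with all peaks (left) and with 16879 peaks in each library (right). On the left collagens rise from 15.9% to 70.5%, and on the right they lie below the open squares in all 13 libraries.

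To ask whether region of origin or H3.3 K27M changed which collagen promoters were open, detection was compared by Fisher's exact test (two-sided) over the 1815 genes found in 5 to 8 libraries. The 5 collagens among them were Col5a2, Col23a1, Col28a1, Col4a5 and Col4a6, and 0 passed by region or by genotype, at an adjusted or an unadjusted p under 0.05. Of all genes tested, 0% passed after Benjamini-Hochberg adjustment in either comparison, and 2.15% by region and 1.21% by genotype at the unadjusted p. The smallest p this test can give is 0.000583, so 1 gene alone could not pass after adjustment over 1815 genes. The adjusted result therefore cannot decide whether a single collagen promoter changed. The widest splits were Col28a1, seen in 1 brainstem library and 4 telencephalon libraries (exact p = 0.266, adjusted p = 1.0) and in 4 libraries with K27M and 1 control (exact p = 0.266), and Col5a2, seen in 5 K27M libraries against 2 control ones (exact p = 0.286, adjusted p = 1.0). The most shared Col28a1 peak was called in 12 libraries, centred 1546 bp downstream of the nearest start. It counted as a promoter peak only where its edge reached the promoter window. The Col28a1 split is therefore one of peak edges and not of the presence of an open region.

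At equal peak number, Col2a1, the cartilage fibril collagen, kept a peak in 6 of 6 libraries from brainstem and 2 of 7 from telencephalon (exact p = 0.021, adjusted p = 0.765). It was 1 of 6 collagens tested, where 3.81% of 1839 genes passed at the unadjusted p and 0% after adjustment. In the deposited lists Col2a1 was found in 6 brainstem and 6 telencephalon libraries. At equal peak number Col18a1 was found in 4 brainstem and 1 telencephalon libraries and Col25a1 in 2 and 6 (exact p = 0.103 for each).

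Promoter fold was compared with limma on log2 values centred on each library's median, with culture as a block, over the 11483 genes with a promoter peak in all 13 libraries. The 5 collagens tested passed in 0 of 7 contrasts after adjustment. By region, 0.0174% of all genes passed after adjustment and 5.08% at the unadjusted p. By genotype the shares were 0% and 4.35%. Within control libraries brainstem against telencephalon gave 0% and 4.77%, and within K27M libraries 0.0261% and 3.74%. K27M against control gave 0% and 3.82% in brainstem and 0% and 4.14% in telencephalon, and the region by genotype interaction 0% and 3.77%.

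In 1 contrast 1 collagen had an unadjusted p under 0.05. In telencephalon, Col19a1 was 0.24 lower in K27M than in control libraries on the log2 scale (SE 0.10, 95% interval -0.45 to -0.03, limma, adjusted p = 1.0), and in brainstem the difference was -0.06 (-0.29 to 0.18). The difference between these 2 effects was 0.18 (-0.12 to 0.48, limma, adjusted p = 1.0). Over both regions it was -0.15 (-0.31 to 0.02, limma, adjusted p = 0.999).

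Col11a2 was -0.14 in brainstem against telencephalon (-0.29 to 0.02, limma, adjusted p = 0.952). The region differences of the other collagens were 0.06 for Col19a1 (-0.09 to 0.21), 0.00231 for Col5a1 (-0.14 to 0.14), -0.02 for Col11a1 (-0.19 to 0.15) and -0.00494 for Col16a1 (-0.16 to 0.15). The genotype differences, K27M minus control, were -0.01 for Col5a1 (-0.16 to 0.15), 0.04 for Col11a1 (-0.14 to 0.22), -0.02 for Col11a2 (-0.19 to 0.14) and 0.06 for Col16a1 (-0.11 to 0.23). The farthest end of these 10 intervals was -0.31, for Col19a1 by genotype.

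In a fit added after the values were seen, over 14919 genes found in 11 or more libraries with missing values left out, 20 collagens were tested and 0 passed after adjustment by region or genotype. By region 3 had an unadjusted p under 0.05. Col18a1 was 0.17 higher in brainstem (0.02 to 0.33, limma, adjusted p = 0.803) and Col26a1 0.15 higher (0.01 to 0.30, limma, adjusted p = 0.858), and Col20a1 fell by 0.16 there (-0.31 to -0.00498, limma, adjusted p = 0.869). Of all genes in that fit 5.64% passed at the unadjusted p by region and 0.0268% after adjustment, and by genotype 4.46% and 0%. Within control libraries the region contrast of that fit had 4 collagens under an unadjusted p of 0.05, where 4.97% of all genes were, and 0% passed after adjustment. Col26a1 was 0.26 higher (0.04 to 0.48), Col2a1 0.25 higher (0.03 to 0.48) and Col18a1 0.25 higher in brainstem (0.02 to 0.48), and Col25a1 fell by 0.23 there (-0.45 to -0.02), each with a limma adjusted p of 0.964. In these genes control telencephalon 59 had no promoter peak, so each value set 3 brainstem libraries against 2 telencephalon ones. Within K27M libraries the same contrast had 0. Whether the region differences of these genes differ by genotype is the interaction, in which 0 collagens had an unadjusted p under 0.05. By genotype in telencephalon Col19a1 was again the 1 collagen under the unadjusted p, where 4.29% of all genes were, and 0% passed after adjustment.

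Gene bodies carried further peaks. A body peak lies inside the gene and touches none of its promoter windows. Of the 44 collagens 36 had at least 1 and 8 had none, and a library held 18 to 111 of them (median 68). Collagens of 20 kb or longer (40 genes) had a median of 1.18 body peaks per 100 kb in a library, against 0.681 for 10159 protein-coding genes of that length (quartiles 0.147 and 1.82).

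Col27a1, a fibrillar collagen of growth cartilage, had most, 5.46 ± 1.71 per library, followed by Col18a1 (5.08 ± 2.06), Col4a2 (4.38 ± 1.33), Col25a1 (4.23 ± 2.2) and Col11a1 (3.92 ± 2.53). These neighbours lay within 1 SD of each other. Per 100 kb Col9a3 had 5.36, Col9a1 4.61, Col27a1 4.51, Col18a1 4.44 and Col25a1, the longest at 468.4 kb, 0.903. The Col9a3 value rests on 1.31 peaks per library in 24.4 kb. Its 1 merged body peak was found in 10 libraries, yet each library had at least 1 body peak. Some counted peaks therefore belong to merged peaks that touched a promoter window.

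In 6 collagens 7 body regions, given as merged peaks, were found in all 13 libraries. They lay in Col5a3, Col27a1, Col4a2, Col4a4, Col9a1 and Col23a1. The strongest was in Col4a4 (chr1:82476062-82477313, intronic, 110.0 kb from the gene start), with a fold of 3.95 ± 0.521 and a mean percentile of 86.6. That in Col5a3 (chr9:20793529-20794939, overlapping an exon) had 3.68 ± 0.436 and 80.9. The Col5a3 promoter window held a peak in 4 libraries. That promoter peak covered no Col5a3 start and also touched a promoter window of Rdh8, from which it cannot be told apart. The region in Col9a1 (chr1:24244722-24246312, intronic) had 3.29 ± 0.682. The regions in Col23a1 and Col4a2 overlap the promoter windows of Phykpl and Gm15419 and cannot be told apart from them. A Col26a1 intron (chr5:136790452-136791590) was found in 12 libraries at 4.05 ± 0.544, a mean percentile of 88.6.

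Of 203 merged body peaks of collagens, 34 were found in 5 to 8 libraries and tested among 11706 merged peaks. By region 0 passed after adjustment or at the unadjusted p, where 0% and 2.36% of all passed. By genotype 0 passed after adjustment and 2 at the unadjusted p, where 0% and 1.26% of all passed. Those were a Col15a1 region (chr4:47234975-47235756), present in 6 of the 7 with K27M and 1 of the 6 without, and a Col4a4 region (chr1:82553858-82555551), found in 1 of 7 and 5 of 6 (Fisher's exact p = 0.0291 and adjusted p = 1.0 for each). As the smallest p of this test is 0.000583, 1 body peak alone could not pass after adjustment over 11706 merged peaks.

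The genes that process collagen were open in every library more often than the collagens by count. Of 29, 15 were open in every library (51.7%, against 42.0% of protein-coding genes) and 4 in none (P4hb, Serpinh1, Loxl1 and Loxl2). They included the prolyl hydroxylase subunit P4ha1 (fold 4.19), the lysyl hydroxylases Plod2 (3.71) and Plod3 (3.47), and the glycosyltransferase Colgalt1 (3.98). P4hb is the partner subunit of P4ha1, and Serpinh1 is the collagen chaperone. Of 11 collagen receptors 5 were open in all 13 (45.5%: Itga1, Itgb1, Ddr1, Mrc2 and Adgrg1). Of 15 basement membrane partners 7 were (46.7%), among them the laminin chains Lama1 (3.48), Lama4 (3.93) and Lamc1 (3.62). Both shares lay near the 42.0% of protein-coding genes. None of the lists was tested as a set.

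Markers of the cells that make most brain collagen were checked beside these values. OPC markers were open in 8 to 10 of 10 in each library, and 8 of 10 in all 13, with Pdgfra, Olig1, Olig2 and Sox10 among them and Cspg4 in 3. Astrocyte markers were open in 3 to 7 of 7 in each library. Of the 7, 3 were open in all 13 (42.9%, against 42.0% of protein-coding genes) and 0 lacked a peak in every library. Fibroblast markers were open in 0 to 9 of 15 per library. The numbers were 2, 5 and 9 in control brainstem, 9, 7 and 5 in K27M brainstem, 6, 0 and 8 in control telencephalon and 6, 8, 3 and 5 in K27M telencephalon. Dcn, Lum, Slc6a13, Slc47a1 and Ogn had no promoter peak in any library (33.3% of the list, against 30.6% of protein-coding genes). Foxc1 and Tbx18 had one in 12, Prrx1 in 10, Fbln1 in 9, Pdgfrl in 8, and Twist1 and Osr1 in 6.

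Pericyte and smooth muscle markers were open in 2 to 8 of 12, with Pdgfrb and Higd1b at 0 (16.7% of the list), Rgs5, Anpep and Cnn1 in 1 library, Acta2 and Tagln in 7, Abcc9 and Myh11 in 9, Kcnj8 in 12 and Vtn in all 13. Endothelial markers were open in 2 to 7 of 12, with Cdh5, Tek, Tie1 and Emcn at 0 (33.3%), Pecam1 in 1, Cldn5 in 3, Kdr in 10, Flt1 in 11 and Erg in all 13. Microglial markers were open in 0 to 3 of 8, with Cx3cr1, Csf1r, Spi1, Trem2 and Itgam at 0 (62.5%) and P2ry12 in 12. The libraries with the most fibroblast markers, control brainstem 61 and K27M brainstem 41, also held the most collagen promoters (31 each), and the library with 0 held 7. List length moved with both, and the part of other cells in the collagen peaks was not tested.

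**Figure D5:**
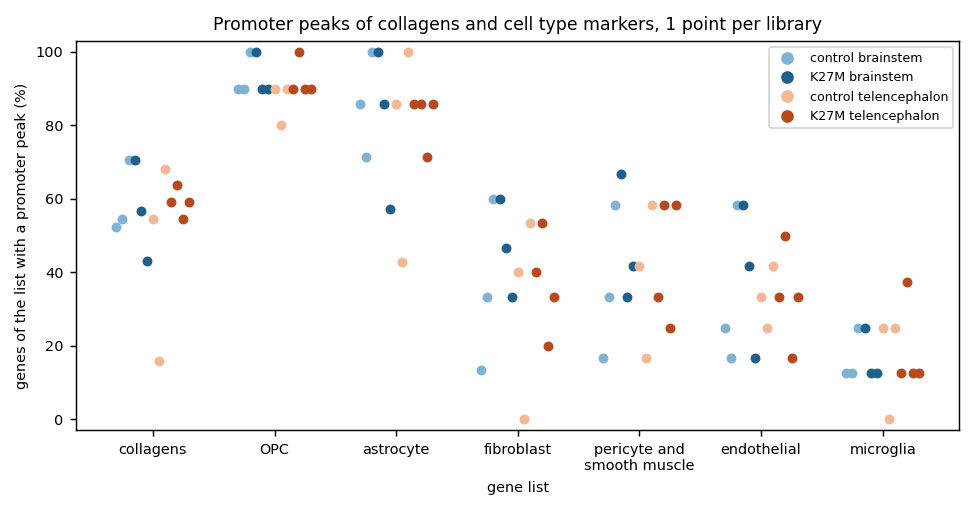
Share of each gene list with a promoter peak (y, %), 1 point per library coloured by group, for the collagens and 6 lists of cell type markers (x). OPC markers lie at 80% to 100%, astrocyte markers at 42.9% to 100%, fibroblast markers at 0% to 60.0% and microglial markers at 0% to 37.5%.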

How the data were processed

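Omni-ATAC-seq was done on 13 cultures. Per the labels and the study's methods, the authors trimmed reads with cutadapt 3.4 and Trim Galore 0.6.7, aligned them to mm10 with BWA 0.7.17-r1188 in the nf-core ATAC-seq pipeline, left out blacklisted regions, and used MACS2 2.2.7.1 to find broad peaks separately in every library. The call cutoff is not given in the sources used here. The deposited lists give per peak a fold ratio over local background, and the −log10 of p and of q. The deposited score was used only to check the format. Nothing was normalised between libraries, and read depth is unknown, so no counting interval can be given. Of 487975 peaks, 0 ran past a chromosome end of GRCm38.

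Here peaks were assigned by 1 bp overlap to GENCODE M21 promoters, and peaks of all libraries were joined at 1 bp overlap for gene bodies. The highest fold in the windows represents a gene. Percentiles are ranks in the library's own list. Detection was tested by Fisher's exact test and fold by limma 3.58.1 (R 4.3.3), each fitted over all genes or merged peaks with Benjamini-Hochberg adjustment at 0.05, 11 tests in all. The smallest p of the detection test is 0.000583, so a lone gene or merged peak could not pass it after adjustment. Culture number entered the limma fit as a block, as the study accounted for matched cultures. The labels do not say that cultures of one number share animals. The limma p-values rest on the spread between these pools, and the exact test uses only whether a peak was called in each library. The tests were checked on simulated data.

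Genes were named where they passed a test, had an unadjusted p under 0.05 by region or genotype, were open in all 13 libraries, or were on lists of fibroblast, vascular and neural collagens. The body peaks of the 5 genes with most were added, and collagens outside this rule were named after their values were seen. Members, lists and rule were chosen with earlier results of these data known. Alternatives were equal peak number, peaks with p of at most 1e-10, a 500 bp promoter, other fits and leaving out each library.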

Additional observations from a re-analysis of the deposited data

Results flagged for a closer look

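In the 4 K27M telencephalon libraries, 1 library stood apart from the other three at 2 of the 23 measures tested, and chance flags about 1 in 20. The Col8a1 promoter fold reached 3.54 and that of Col26a1 3.34, both in culture 51, which has the longest list of that group (52164 peaks). The others were 3.03, 3.06 and 3.0 for Col8a1, a hexagonal network collagen of vessel walls, and 2.66, 2.71 and 2.58 for Col26a1. No region by genotype difference of a collagen passed.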

How the results depend on the processing

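No collagen passed a test in any of 201 alternative fits of the 11 tests. With p of at most 1e-10, 962 genes and no collagen were left for the 7 fold fits, which were not run for collagens. The number of collagens with a promoter peak in all libraries, 5 in the deposited lists, was 2 at equal peak number and 0 with p of at most 1e-10. It ranged from 5 to 14 when each library was left out in turn, an alternative chosen after seeing the data like the fit over genes in 11 or more libraries, and only control telencephalon 59 raised it to 14. The number with no peak, 9, became 25 at equal peak number and 31 with p of at most 1e-10. Of 184 alternative values of single collagens, 39 had the other sign and 0 passed.

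The replicate block of culture number changed no call: 0 collagens passed with or without it in the limma fits, and 0 in the exact detection and body tests stratified by culture. Whether the culture numbers pair the libraries was not tested. Deviations from group means over the genes of the fold fit were correlated between libraries of different groups. In 16 pairs with the same number the median was 0.0867, with 7 over 0.1. In 47 pairs with other numbers it was -0.0175, with 6 over 0.1. With no replicate block the genotype difference of Col5a1 was 0.0237, of Col11a1 -0.0302 and of Col11a2 0.00113, each of the other sign.

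With log2 fold not centred, the sign turned for genotype in Col5a1 (0.0247) and Col11a2 (0.00856) and for region in Col11a1 (0.0595) and Col16a1 (0.075). With percentiles it turned in the same comparisons (6.75, 4.13, 0.347 and 3.21 percentile points). When each library was left out in turn, the region difference spanned 0 in Col5a1 (-0.0499 to 0.0406), Col11a1 (-0.114 to 0.0664) and Col16a1 (-0.0617 to 0.0903), and the genotype difference in Col5a1 (-0.0754 to 0.0279), Col11a1 (-0.085 to 0.157) and Col11a2 (-0.0896 to 0.048). The cause was not tested. Read depth is not in the lists, so an absent peak in a short list cannot be told apart from a closed promoter.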
